A study of Mus musculus with 8 samples.

Results

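Endothelial cells (ECs) of the lung are held together by junction proteins, and 9 genes of these proteins are described here: Cldn5, Ocln, Tjp1, F11r, Jam2, Jam3, Esam, Cdh5 and Pecam1. They were chosen by gene symbol as the tight and adherens junction genes of the endothelial barrier, by a rule that uses no measured value, although earlier results of these data were known when the genes were picked. Each symbol was found once, giving 9 of the 54532 genes in the deposited count table. All 9 had enough counts to be tested. The RNA came from lung ECs of wild-type mice (WT, C57BL/6J in the methods of the study) at day 14 after birth. From birth onwards the pups had breathed either 21% O2 (normoxia, room air) or 80% O2 (hyperoxia), and each group held 4 bulk RNA-seq libraries. Means are given below as mean ± SD over the 4 libraries of a group. Both groups went through the same isolation, in which cells bound to CD45 beads were removed and cells bound to CD31 beads were kept. CD31 is the protein of Pecam1, so 1 of the 9 genes encodes the antigen by which the cells were collected. Such an isolate is a mixture of capillary, arterial, venous and lymphatic ECs, with RNA of any other cell that came through the beads. The labels do not say whether a library is 1 pup or a pool, or whether libraries come from separate litters, so the p-values below measure the spread between these libraries, which may be partly technical. Sex-linked counts, given below, show RNA of more than 1 pup in normoxia 1, 3 and 4 and in hyperoxia 1 and 2.

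Neighbouring ECs are sealed by tight junctions and held by adherens junctions, which lie mixed along the same cell border. In tight junctions, claudins and occludin form the strands that close the cleft, junctional adhesion molecules (JAMs) lie beside them, and zonula occludens proteins on the inner face tie the strands to actin. In adherens junctions, VE-cadherin binds VE-cadherin on the next cell and is linked to actin through catenins. In the lung, this border limits how much fluid, plasma protein and how many leukocytes pass from capillaries into the tissue.

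Library totals ran from 16098086 to 18300730 counts, and the 9 genes together took between 1.09% and 1.23% of the counts of a library. Libraries differed in ways other than the treatment. The mitochondrial share of counts separated the groups, at 0.864% to 1.05% in normoxia and 1.21% to 1.43% in hyperoxia, and its part in the results was not tested. Hyperoxia 3 lay apart from the rest of its group on the first principal component of all tested genes (57.8% of the variance), at 20.3 against 40.2 to 42.9 for the others, while normoxia lay between -43.6 and -28.5. Counts of Xist were near 0 in normoxia 2 and hyperoxia 4 and Y-linked counts were near 0 in hyperoxia 3, while the other 5 libraries held both. The sexes were thus not balanced between libraries, and these 5 held RNA of both sexes and so of more than 1 pup. Whether the libraries with 1 sex were pools is not known. With the Y-linked share of counts in the model, Cldn5 and Tjp1 kept log2 fold changes of 0.22 (adjusted p = 0.0101) and -0.65 (adjusted p = 8.43e-05). The EC label was checked against 11 pan-endothelial markers other than these 9 genes. Their summed expression, in CPM (counts scaled to a common library total, with the TMM factors of edgeR), was between 8901 and 9142 in normoxia and between 9402 and 9670 in hyperoxia. Of the 11 markers, 4 were higher in hyperoxia and 3 lower at an adjusted p under 0.05 in edgeR. Over all tested genes, these shares were 18.5% and 17.1%, so the markers were not steadier than other genes. Kdr, the main VEGF receptor of ECs, stood at 1956 ± 64.8 CPM under normoxia and 2222 ± 50.9 CPM under hyperoxia. Kdr rose by 0.18 on the log2 scale (adjusted p = 0.00705) and Eng by 0.43 (adjusted p = 1.52e-05). Emcn (0.42, adjusted p = 0.000159) and Fli1 (0.41, adjusted p = 0.00874) were also higher. The 3 that fell were Tie1 (-0.18, adjusted p = 0.00451), Clec14a (-0.23, adjusted p = 0.00432) and Erg (-0.25, adjusted p = 0.00339). Eng, Emcn, Fli1 and the 3 that fell were named after their values were seen.

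Of the 9 genes, 1 rose in hyperoxia (Cldn5), 1 fell (Tjp1) and 7 did not pass the threshold, which was an adjusted p under 0.05 in the quasi-likelihood test of edgeR. Over all 15564 genes tested, 18.5% were higher and 17.1% lower by the same rule, so these counts are near the background. None of the 9 also reached a log2 fold change of 1 in either direction, against 6.98% of all tested genes. The median log2 fold change of the 9 was -0.03, beside -0.0040 for all tested genes. The groups did not overlap for 3 of the 9 genes (Cldn5, Tjp1 and F11r), while 35.4% of all tested genes had groups without overlap. In bulk RNA, fewer cells of a type and less RNA per cell cannot be told apart, and this holds for every value given here.

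**Figure D1:**
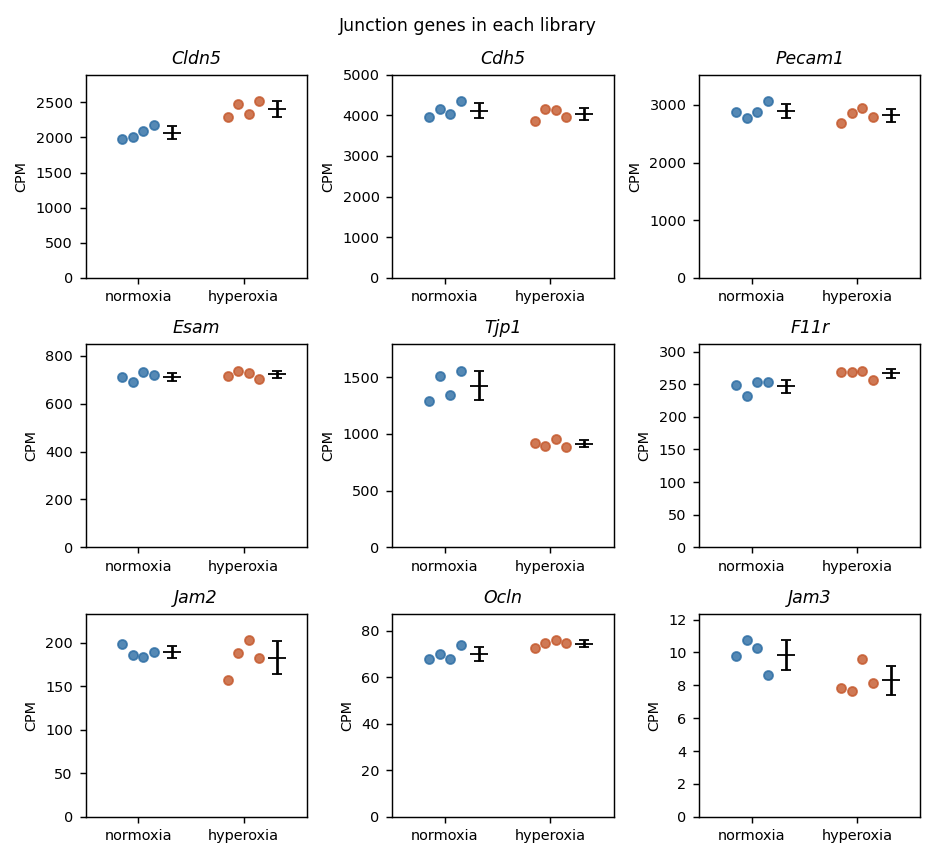
Expression of the 9 junction genes in CPM (y axes, starting at 0) in each of the 4 normoxia and 4 hyperoxia libraries, 1 point per library in order of replicate number, with the group mean and SD beside the points. Tjp1 falls from 1426 to 912 CPM and Cldn5 rises from 2066 to 2408 CPM without overlap of the groups, and the points of Esam, Cdh5, Pecam1, Jam2, Ocln and Jam3 overlap.

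Cldn5 encodes claudin-5, the main strand-forming claudin of ECs. It is a gene of 1 exon on chromosome 16 (GRCm38, positions 18776847 to 18778262, plus strand, ENSMUSG00000041378). Its expression was 1981, 2005, 2095 and 2184 CPM in normoxia 1 to 4 and 2293, 2484, 2336 and 2519 CPM in hyperoxia 1 to 4. Every hyperoxia library lay above every normoxia library, and the gap between the groups was of the same order as the SD within them. The group means were 2066 ± 92.4 and 2408 ± 110.3 CPM. On the log2 scale the rise was 0.22 (SE 0.0510, 95% interval 0.11 to 0.33, adjusted p = 0.00643). This places Cldn5 at percentile 73.4 of the log2 fold changes of all tested genes. The size of the rise held under the other settings (0.17 to 0.26), but the call did not. On the deposited FPKM (fragments per gene length and a scaled library total), the adjusted p of limma was 0.0677 with a pseudocount of 1. It was 0.0681 with 0.1 and 0.362 without a filter on low values.

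Ocln encodes occludin, a transmembrane protein of the tight junction strand. The gene lies on chromosome 13 (100496507 to 100552718, minus strand, ENSMUSG00000021638) and has 10 merged exons. Expression was 68.0, 70.2, 68.0 and 74.1 CPM in normoxia 1 to 4 and 72.5, 74.6, 76.1 and 74.9 CPM in hyperoxia 1 to 4. Normoxia 4 lay within the hyperoxia range, and the other normoxia libraries lay below it. The difference of 0.09 (log2) did not pass the threshold (SE 0.0452, adjusted p = 0.152), and its 95% interval ran from -0.01 to 0.19.

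Tjp1 encodes ZO-1, the scaffold that ties claudins, occludin and JAMs to actin. It was the member with the largest change. The gene spans 31 merged exons on chromosome 7 (65296165 to 65527781, minus strand, ENSMUSG00000030516). Expression was 1286.5, 1512, 1346 and 1558 CPM in normoxia 1 to 4 and 916, 894, 953 and 884 CPM in hyperoxia 1 to 4. The lowest normoxia library was well above the highest hyperoxia library, and the normoxia libraries were more widely spread. The coefficient of variation was 9.12% in normoxia and 3.38% in hyperoxia. The group means were 1426 ± 129.97 and 912 ± 30.8 CPM. This is a log2 difference of -0.64 (SE 0.0648, 95% interval -0.79 to -0.50, adjusted p = 3.31e-05). This placed Tjp1 at percentile 5.08 of all tested genes, near the 5th percentile of -0.65. Without hyperoxia 3 the value was -0.67 (adjusted p = 6.27e-05), and Cldn5 was at 0.23 (adjusted p = 0.00990).

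**Figure D2:**
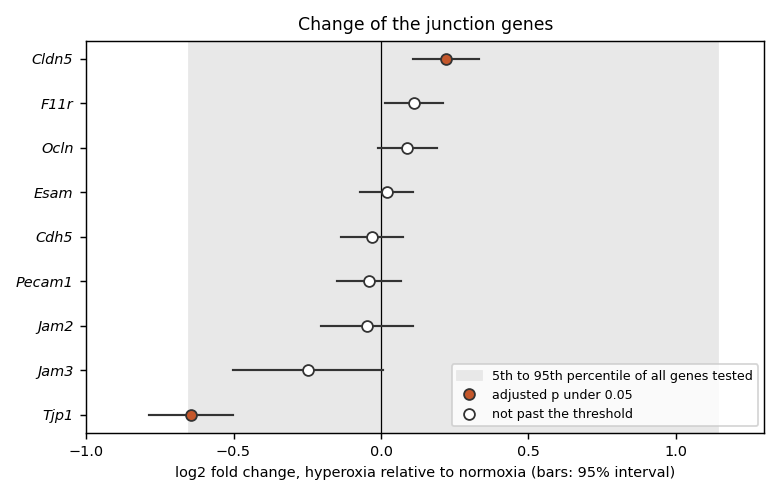
Log2 fold change of each of the 9 genes, hyperoxia relative to normoxia (x axis), with its 95% interval as a bar. Filled points mark an adjusted p under 0.05 and the grey band runs from the 5th to the 95th percentile of all tested genes (-0.65 to 1.14). Tjp1 (-0.64) and Cldn5 (0.22) are filled, and the intervals of Ocln, Esam, Cdh5, Pecam1, Jam2 and Jam3 cross 0.

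Cldn5 and Tjp1 are the members that passed the threshold, so the bases just upstream of their RefSeq starts are shown. RefSeq promoters were given for 4 of the 9 genes (Cldn5, Ocln, Tjp1 and F11r), and the 250 bases before the start are printed 5′ to 3′ on the strand of the gene, with matches to the motifs in capitals. The Cldn5 window is chr16:18776597-18776846 (GRCm38.p6, plus strand), and the Tjp1 window is chr7:65371245-65371494 (minus strand), which belongs to a start inside the longer gene interval given above.
Cldn5: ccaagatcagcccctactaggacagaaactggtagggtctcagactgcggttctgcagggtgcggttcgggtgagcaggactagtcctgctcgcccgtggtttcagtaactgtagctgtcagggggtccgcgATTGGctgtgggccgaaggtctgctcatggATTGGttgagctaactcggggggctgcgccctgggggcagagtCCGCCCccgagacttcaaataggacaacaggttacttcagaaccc
Tjp1: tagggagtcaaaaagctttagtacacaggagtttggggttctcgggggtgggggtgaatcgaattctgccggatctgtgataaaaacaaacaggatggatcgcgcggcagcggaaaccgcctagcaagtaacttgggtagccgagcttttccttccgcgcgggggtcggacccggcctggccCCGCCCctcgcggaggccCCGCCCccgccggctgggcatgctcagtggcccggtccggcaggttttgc

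Both windows were searched on both strands for the GC box (GGGCGG), the CCAAT box (CCAAT), the TATA box (TATAAA), the AP-1 site (TGANTCA), a SOX site (AACAAT), a forkhead site (TGTTTAC) and an ETS site (CCGGAA). The Cldn5 window held 1 GC box and 2 CCAAT boxes, the CCAAT boxes at -118 to -114 and -88 to -84 and the GC box at -45 to -40 before the start. The Tjp1 window held 2 GC boxes, at -68 to -63 and -50 to -45, and no CCAAT box. All of these matches read on the strand opposite to the gene. A GC box was present in 32.7% and a CCAAT box in 33.8% of the 32851 RefSeq promoters of the same length, so both are common. Neither window held the other letters, which were present in 12.4% (TATA), 6.75% (AP-1), 9.42% (SOX), 3.17% (forkhead) and 12% (ETS) of all promoters. GC content was 59.6% for Cldn5 and 63.2% for Tjp1, against a median of 52.4%. Of the others, the F11r window held 3 CCAAT boxes, 1 GC box and 1 AP-1 site. Such matches describe the letters and do not show that a factor was bound.

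The JAM family is made of immunoglobulin-like proteins that bind across the cleft and take part in junction assembly and leukocyte passage. F11r, Jam2, Jam3 and Esam encode JAM-A, JAM-B, JAM-C and the EC-selective adhesion molecule. None of the 4 passed the threshold. F11r (chromosome 1, 171437535 to 171464603, plus strand) was expressed at 249, 232, 253 and 253 CPM in normoxia 1 to 4 and at 269, 269, 271 and 257 CPM in hyperoxia 1 to 4. All hyperoxia libraries lay above all normoxia libraries, with hyperoxia 4 close to the highest normoxia value. The means were 246.7 ± 9.97 and 266.4 ± 6.35 CPM, and the difference was 0.11 on the log2 scale (SE 0.0444, 95% interval 0.01 to 0.21, adjusted p = 0.0770). With genes under a mean of 10 CPM left out, its adjusted p was 0.0349.

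Jam2 (chromosome 16, 84774123 to 84825928, plus strand) was at 199, 186, 183 and 189 CPM in normoxia 1 to 4 and at 157, 188, 203 and 183 CPM in hyperoxia 1 to 4. Hyperoxia 1 was below and hyperoxia 3 above the whole normoxia range, so the groups overlapped and the spread was larger in hyperoxia (coefficient of variation 10.5% against 3.67%). Jam2 had a log2 fold change of -0.05 between the groups (SE 0.0707, 95% interval -0.21 to 0.11, adjusted p = 0.630), and it was 0.02 without hyperoxia 1.

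Jam3 (chromosome 9, 27097384 to 27155421, minus strand) was the member with the fewest reads, with 135 to 189 counts per library. Its level was 9.80, 10.8, 10.3 and 8.62 CPM in normoxia 1 to 4 and 7.82, 7.65, 9.62 and 8.16 CPM in hyperoxia 1 to 4. The groups overlapped, with normoxia 4 below hyperoxia 3. The difference of -0.25 on the log2 scale did not pass the threshold (SE 0.115, 95% interval -0.50 to 0.01, adjusted p = 0.120). Jam3 was also the member whose exons overlap those of another gene: the antisense gene Gm48796 covers 1159 of its 3200 exon bases (36.2%) and was given 445 counts over the 8 libraries against 1276 for Jam3. The strand setting of the counting is not given in the sources used here, so reads of the shared bases are uncertain.

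Esam (chromosome 9, 37528078 to 37538319, plus strand) was at 711, 689, 731 and 720 CPM in normoxia 1 to 4 and at 716, 739, 730 and 705 CPM in hyperoxia 1 to 4. The groups overlapped over most of their ranges. Its log2 difference was 0.02 (SE 0.0407, adjusted p = 0.738), with the narrowest 95% interval of the 9 genes, from -0.07 to 0.11.

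Cdh5 encodes VE-cadherin, the adhesion receptor of endothelial adherens junctions. The gene has 13 merged exons on chromosome 8 (104101625 to 104144511, plus strand, ENSMUSG00000031871). Expression was 3953, 4147, 4030 and 4355 CPM in normoxia 1 to 4 and 3874, 4163, 4140 and 3962 CPM in hyperoxia 1 to 4. The groups overlapped, with the lowest library in hyperoxia and the highest in normoxia. The means were 4121 ± 175 and 4035 ± 139.7 CPM. Between them lay a log2 difference of -0.03 (SE 0.0479, adjusted p = 0.658), and the 95% interval of -0.14 to 0.08 does not reach the size of the Tjp1 difference.

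Pecam1 encodes CD31, a homophilic adhesion protein of the lateral EC border and the antigen of the beads. It lies on chromosome 11 (106654217 to 106750628, minus strand, ENSMUSG00000020717). Expression was 2877, 2782, 2881 and 3068 CPM in normoxia 1 to 4 and 2683, 2869, 2945 and 2791 CPM in hyperoxia 1 to 4. The groups overlapped, again with the extremes in normoxia 4 and hyperoxia 1. Hyperoxia differed from normoxia by -0.04 on the log2 scale (SE 0.0486, 95% interval -0.15 to 0.07, adjusted p = 0.558). Cells of both groups had been collected on this protein.

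Levels of different genes were compared per length, on the deposited FPKM. Cldn5 stood highest, at 1447 ± 66.5 FPKM (normoxia) and 1692 ± 78.6 FPKM (hyperoxia), and ranked 3 to 6 among the 13277 protein-coding genes tested. Cdh5 followed at 972 ± 40.6 and 955 ± 36.1 FPKM, ranking 9 to 16. Pecam1 (462 ± 20.2 and 451 ± 19.2 FPKM) and Esam (247 ± 6.94 and 251 ± 5.88 FPKM) came next. These 4 top members all encode proteins that reach across the cell membrane into the cleft. Tjp1 was at 181 ± 16.1 and 116 ± 4.06 FPKM, and its rank moved between 150 and 327 over the libraries. F11r (91.9 ± 4.05 and 99.5 ± 2.54 FPKM), Jam2 (31.0 ± 1.21 and 30.1 ± 3.22 FPKM) and Ocln (16.5 ± 0.670 and 17.6 ± 0.398 FPKM) were lower. Jam3 was lowest at 3.06 ± 0.278 and 2.58 ± 0.283 FPKM. The order was the same in both groups, and the ranges of neighbours in it did not overlap over the 8 libraries. Tjp1 and F11r lay at 112 to 122 and 95.8 to 101 FPKM in hyperoxia.

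**Figure D3:**
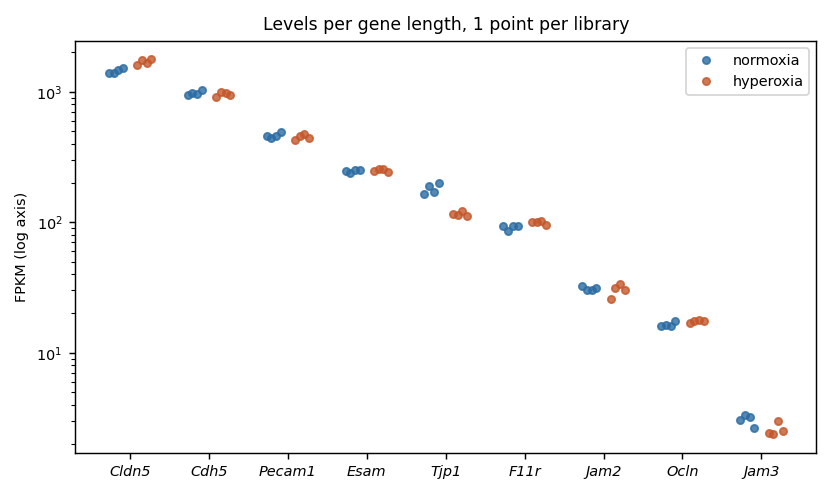
Deposited FPKM of the 9 genes (y axis, log scale) in each library, with normoxia on the left and hyperoxia on the right of each gene. Genes are ordered by level from Cldn5 (1392 to 1766 FPKM) to Jam3 (2.38 to 3.31 FPKM), and the fall of Tjp1 (181 to 116 FPKM) is the widest shift within a gene.

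Summed over the 9 genes, FPKM came to 3452 ± 135 in normoxia (3343 to 3643) and 3614 ± 113 in hyperoxia (3455 to 3720), with overlap of the groups. The makeup of this sum shifted. Cldn5 took 41.6%, 41.4%, 42.6% and 42.0% of it in normoxia 1 to 4 and 46.5%, 47.0%, 45.3% and 48.4% in hyperoxia 1 to 4. Tjp1 took 4.90%, 5.66%, 4.96% and 5.44% in normoxia and 3.37%, 3.07%, 3.35% and 3.08% in hyperoxia. Both shares separated the groups. So did those of Cdh5 (27.6% to 28.8% in normoxia, 25.6% to 27.1% in hyperoxia) and Pecam1 (13.1% to 13.7% and 12.2% to 13.0%), whose own levels did not pass the test, so a share that separates is not particular to Cldn5 and Tjp1. A ratio of the pair carries the opposite changes of both genes. There were 8.03 ± 0.612 Cldn5 FPKM per Tjp1 FPKM in normoxia (7.31 to 8.59) and 14.6 ± 1.09 in hyperoxia (13.5 to 15.7). For Cldn5 per Cdh5 the values were 1.49 ± 0.0439 and 1.77 ± 0.0874, and for Cdh5 per Tjp1 they were 5.39 ± 0.293 and 8.23 ± 0.343. Pecam1 per Cdh5 was 0.475 ± 0.0165 and 0.472 ± 0.00688, with overlap. These shares and ratios rest on the same counts as the tests above and add no independent evidence.

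Genes with the pattern most like Cldn5 and Tjp1 were sought among 9013 protein-coding genes with a mean of at least 10 CPM. Likeness was the root mean square difference of centred log2 CPM over the 8 libraries, where 0 is the same profile. Wdr1 (0.0329), Lin7c (0.0334) and Psmc1 (0.0335) were closest to Cldn5. Sertad1 (0.0272), Gna14 (0.0346) and Kdm7a (0.0469) were closest to Tjp1. These are descriptions of profiles over 8 libraries that share the group difference.

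Markers of other cells moved with the treatment and are set beside the changes of Cldn5 and Tjp1. The counts of each marker list stand beside the 18.5% higher and 17.1% lower of all tested genes. All 8 alveolar type 2 markers were higher in hyperoxia, with a summed level of 237 to 335 CPM in normoxia and 759 to 2287 CPM in hyperoxia. Sftpc, the surfactant protein of these cells, went from 106 ± 31.1 to 1121 ± 476 CPM. All 6 epithelial markers (5.14 to 12.4 CPM in normoxia, 23.9 to 80.6 CPM in hyperoxia) and all 6 alveolar type 1 markers (71.8 to 88.1 and 140 to 375 CPM) were higher too. Of the mural markers, 5 of 6 were higher (20.9 to 44.5 and 40.8 to 98.1 CPM), and of the fibroblast markers 3 of the 5 tested (59.4 to 105 and 86.6 to 234 CPM). No marker of these 5 lists was at 0 in all libraries. Within the ECs, the 5 aerocyte capillary markers were higher (994 to 1375 CPM in normoxia, 2200 to 2627 CPM in hyperoxia), and 3 of 4 general capillary markers were lower (3600 to 3857 and 2583 to 2971 CPM). Of the arterial markers 3 of 6 were lower, and all 5 lymphatic markers were higher (1248 to 1336 and 1871 to 2129 CPM). Most of the lymphatic sum was Lyve1 (954 ± 48.0 and 1602 ± 75.7 CPM). The groups of Lyve1 and Flt4 did not overlap, while those of the other lymphatic markers did. Of the venous markers 3 of the 5 tested were higher and 0 lower, with summed levels that overlapped (2406 to 3064 and 2566 to 3454 CPM). Of the leukocyte markers, the cells the CD45 beads were meant to remove, 1 of 7 was higher and 1 lower (154 to 315 and 211 to 518 CPM). Beyond the fits with alveolar type 2 and mural markers given below, their part in the results of Cldn5, Tjp1 and the other junction genes was not tested.

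**Figure D4:**
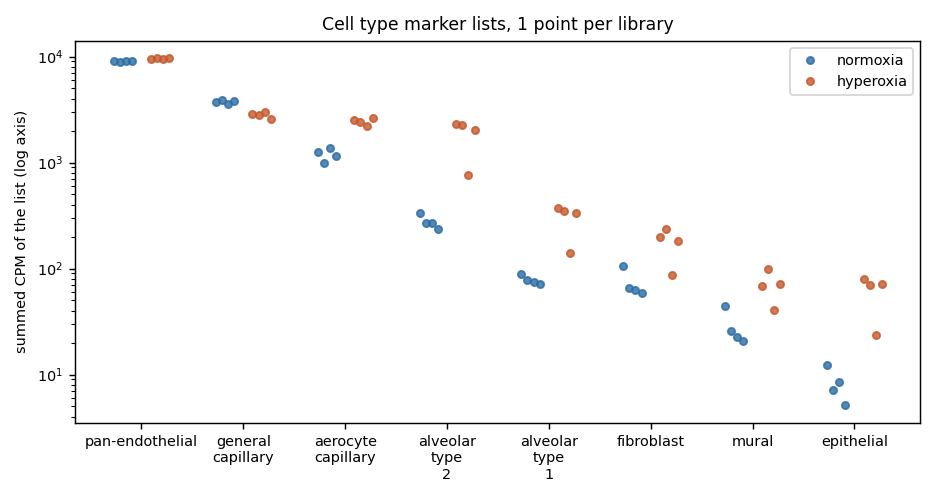
Summed CPM of 8 cell type marker lists (y axis, log scale) in each library, normoxia on the left and hyperoxia on the right of each list. Alveolar and epithelial sums are higher in all hyperoxia libraries, the fibroblast and mural sums overlap in that hyperoxia 3 (86.6 and 40.8 CPM) lies below normoxia 1 (105 and 44.5 CPM), and the pan-endothelial sum runs from 8901 to 9670 CPM over all libraries.

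With the mean log2 level of the alveolar type 2 markers added to the model, Cldn5 was at 0.19 (SE 0.158, adjusted p = 0.676) and Tjp1 at -0.37 (SE 0.182, adjusted p = 0.461). With the mural markers instead, they were at 0.26 (adjusted p = 0.231) and -0.43 (SE 0.114, adjusted p = 0.0583). Both calls were lost in these fits, in which the marker level is itself higher in hyperoxia. Of the 15564 genes, 172 were then higher and 37 lower with the type 2 markers, and 574 higher and 352 lower with the mural markers.

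The members act with partners, scaffolds and regulators, and 90 such genes were listed in 6 groups. Of these, 89 were in the table and 72 were tested, with 29 higher, 13 lower and 30 not past the threshold, and a median log2 fold change of 0.12. Over all tested genes, 18.5% were higher and 17.1% lower, with a median of -0.0040. The counts of each list below stand beside these same shares. Adherens junction partners were the list closest to Cdh5, with 6 of 11 higher and 2 lower (median 0.15). Jup, which encodes plakoglobin, rose from 1189 ± 56.5 to 1323 ± 14.3 CPM (0.15 on the log2 scale, adjusted p = 0.0222). Ctnna1, the catenin that meets actin, fell from 953 ± 13.2 to 861 ± 17.2 CPM (-0.15, adjusted p = 0.0143), and Ctnnb1 did not pass (0.05, adjusted p = 0.452). The Jup call was lost without normoxia 4 (adjusted p = 0.0604) or hyperoxia 2 (0.0682), and with pan-endothelial scaling (0.0902). The Ctnna1 call was lost without a filter on low counts (0.0675). Cdh2, which encodes N-cadherin, rose from 9.32 ± 0.574 to 19.7 ± 2.26 CPM (1.08, adjusted p = 2.18e-05), and Plekha7 from 2.39 ± 0.240 to 5.66 ± 1.14 CPM (1.24, adjusted p = 0.000395).

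Tight junction scaffolds are the relatives of Tjp1, and 4 of the 13 tested were higher and 2 lower (median 0.02). The groups of Amotl2, an angiomotin-like scaffold of EC junctions, did not overlap, at 596 to 721 CPM in normoxia and 430 to 505 CPM in hyperoxia. Its log2 fold change of -0.55 (adjusted p = 0.00016) had the sign of that of Tjp1. A further scaffold of the list went the other way without overlap, from 194.8 ± 5.96 to 263 ± 17.4 CPM (0.43, adjusted p = 0.000149). Amotl1, a relative of Amotl2, was at 381 ± 32.8 and 374 ± 22.0 CPM (-0.03, 95% interval -0.18 to 0.12, adjusted p = 0.780), with overlap of the groups, and the sign of this difference changed with the library left out. The rises past the fold threshold were in genes of low level: Patj (1.48 to 5.88 CPM, 1.99, adjusted p = 0.000873), Cgn (0.598 to 5.59 CPM, 3.23, adjusted p = 0.000878) and Tjp3 (0.869 to 1.86 CPM, 1.08, adjusted p = 0.00823). In hyperoxia 3, which had the lowest epithelial marker sum of its group, Cgn was at 1.43 CPM and Patj at 2.69 CPM, the lowest values of that group. The part of epithelial RNA in these rises was not tested beyond the marker fits.

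Of the 22 other claudins listed, 7 were tested, with 3 higher and 1 lower (median 0.87). Claudin-18 is a claudin of the alveolar epithelium, and Cldn18 was at 6.98, 3.47, 4.98 and 5.19 CPM in normoxia 1 to 4 and at 80.2, 75.4, 21.1 and 74.2 CPM in hyperoxia 1 to 4. The groups did not overlap, and hyperoxia 3 lay far below the rest of its group, as it did for the alveolar markers. Its rise was 3.61 on the log2 scale (adjusted p = 6.31e-05), and 3.90 without hyperoxia 3. Cldn3 also rose (0.695 to 4.81 CPM, 2.79, adjusted p = 0.000472), as did Cldn7 (1.24 to 3.38 CPM, 1.44, adjusted p = 0.0105). In hyperoxia 3, Cldn3 was at 1.83 CPM and Cldn7 at 1.55 CPM, the lowest values of that group, and the Cldn7 groups overlapped. Cldn19 fell from 3.61 ± 1.23 to 1.63 ± 0.579 CPM (-1.14, adjusted p = 0.0139), and Cldn12 (0.12, adjusted p = 0.324) and Cldn15 (-0.15, adjusted p = 0.516) did not pass.

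Of the JAM relatives, 1 of the 4 tested rose: Cxadr, the coxsackievirus and adenovirus receptor of epithelial junctions, from 4.0004 ± 1.11 to 7.89 ± 2.22 CPM (0.98, adjusted p = 0.0104), with overlapping groups. Clmp (0.42, adjusted p = 0.104) and Igsf5 (-0.39, adjusted p = 0.304) did not pass. Among the junction regulators, 11 of 26 were higher and 5 lower (median 0.13). Ptprb encodes VE-PTP, the phosphatase that binds VE-cadherin and Tie2, and it fell from 3691 ± 449 to 2488 ± 275 CPM (-0.57, adjusted p = 0.00113). Tek, which encodes Tie2 itself, was at 1173, 1236, 1089 and 1230 CPM in normoxia 1 to 4 and at 664, 690, 746 and 627 CPM in hyperoxia 1 to 4. The groups were far apart, by -0.79 on the log2 scale (SE 0.0630, adjusted p = 6.35e-06). Heg1, a transmembrane protein of EC junctions, rose from 969 ± 48.9 to 1188 ± 87.4 CPM (0.29, adjusted p = 0.0037), and Src, a kinase of junction proteins, from 4.58 ± 0.728 to 13.0 ± 2.21 CPM (1.51, adjusted p = 4.48e-05).

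Gap junction and other contact genes held 4 higher and 3 lower of 11 (median 0.0047). Their log2 fold changes ran from -0.77, in a gap junction gene whose groups did not overlap, to 0.39. The named genes of this list all rose. Pcdh1, a protocadherin, rose from 1113 ± 37.6 to 1455 ± 35.5 CPM (0.39, adjusted p = 6.98e-05) without overlap. Icam2 rose from 422 ± 34.5 to 513 ± 4.99 CPM (0.28, adjusted p = 0.00318) and Mcam from 1187 ± 80.8 to 1389 ± 116 CPM (0.23, adjusted p = 0.0266). Both encode adhesion proteins of the EC surface, and the Mcam groups overlapped. The Mcam call was lost without normoxia 1 (adjusted p = 0.0611), normoxia 3 (0.0669), hyperoxia 2 (0.0770) or hyperoxia 3 (0.0665), and with pan-endothelial scaling (0.0668).

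**Figure D5:**
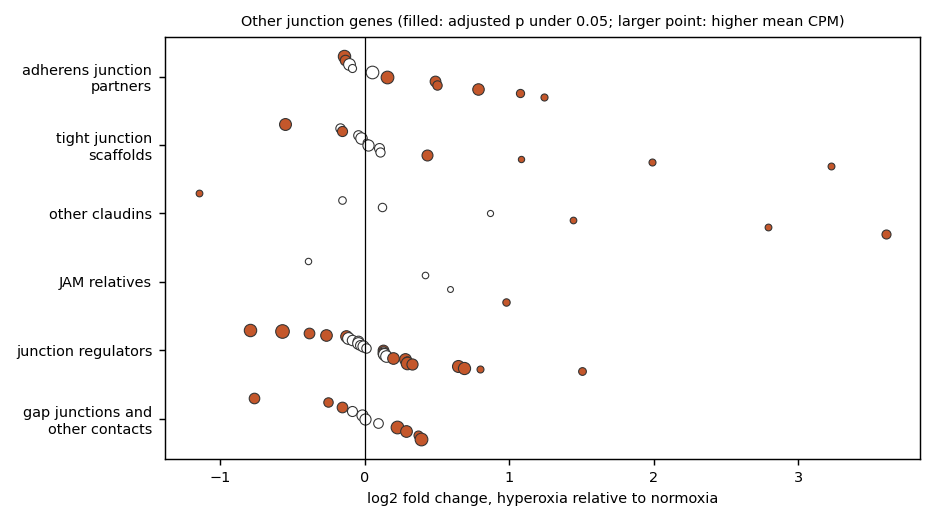
Log2 fold change, hyperoxia relative to normoxia (x axis), of the 72 tested junction genes other than the 9, grouped by list (y axis), with filled points for an adjusted p under 0.05 and larger points for a higher mean CPM. The largest rises, up to 3.61 for Cldn18, are small points of low level. Large points lie on both sides of 0. They include the falls of Tek (-0.79), a gap junction gene (-0.77), Ptprb (-0.57) and Amotl2 (-0.55) and a rise of 0.78 in an adherens junction partner.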

How the data were processed

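Bulk RNA-seq of lung ECs, 4 libraries in normoxia and 4 in hyperoxia, was used. Per the submitters' processing notes, HISAT2 2.0.5, featureCounts 1.5.0-p3 and build mm10 were used; the handling of strand and of reads that match several genes is not given in the sources used here. The authors deposited gene counts, which were used as they are, and FPKM made from the same counts and a gene length. FPKM equalled the count per length and library total times a constant of each library, from 0.974 (normoxia 3) to 1.015 (hyperoxia 2). The coordinates and lengths of all 9 genes matched GENCODE M21 (GRCm38).

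Counts were tested in R 4.3.3 with edgeR 4.0.16 (quasi-likelihood F test, TMM, filterByExpr, group only), with Benjamini-Hochberg adjustment over the 15564 genes kept. CPM uses TMM library sizes, SE follows from the F statistic, and group values are mean ± SD. The test was checked on simulated data. Alternatives were DESeq2 1.42.0, limma 3.58.1 (voom, and log2 FPKM with a pseudocount of 1 or 0.1), other scalings and filters, leaving out each library, the replicate number as a block, and marker or Y-linked levels as covariates.

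The 9 genes and all lists were chosen with earlier results of these data known. Named were the 9 genes, the 3 most abundant members of each other junction list, those with a mean of at least 1 CPM past the adjusted p and an absolute log2 fold change of 1, the 3 genes most like Cldn5 and most like the member with the largest change, and at most 2 markers of a list. Of the genes this rule names, 1 is not reported here, and the list counts include it. The Igsf5 symbol stands on more than 1 gene of the table, and the one with an MGI entry was used. Depth was 16098086 to 18300730 counts per library, and its precision enters the test through the spread between libraries.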

Additional observations from a re-analysis of the deposited data

Results flagged for a closer look

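Single libraries were compared with the rest of their group by the gap to the nearest library over the range of the group, with Dixon's critical value for groups of 4. Of 98 groups of values examined, 6 had a library that stood apart, and chance gives about 1 in 20, or 4.9.

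Among the 9 junction genes this was F11r in hyperoxia 4, at 257 CPM. The rest of that group lay between 268.6 and 270.9 CPM. Among the other junction genes, Ctnna1 was at 836 CPM in hyperoxia 3 against 867 to 873 CPM, Cldn18 at 21.1 CPM in hyperoxia 3 against 74.2 to 80.2 CPM, and Cldn12 at 15.4 CPM in hyperoxia 1 against 18.9 to 19.5 CPM. The summed alveolar type 1 markers were at 140 CPM in hyperoxia 3 against 335 to 375 CPM. The summed fibroblast markers were at 105 CPM in normoxia 1 against 59.4 to 65.8 CPM.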

How the results depend on the processing

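Of 22 alternatives, 17 kept the call of Cldn5 and 20 that of Tjp1, and both kept their direction in all 22. With log2(FPKM + 1), log2(FPKM + 0.1), FPKM without a filter, or the alveolar type 2 or mural covariate, 0 of the 9 genes were higher. With either covariate 0 were lower. With a mean of at least 10 CPM, 2 were higher (F11r added, Jam3 not tested). Leaving out each library left 1 higher and 1 lower.

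Without a call, the direction turned for Jam2 (0.018 without hyperoxia replicate 1, with a range of -0.10 to 0.018 over the libraries left out), Esam (-0.0033 with library totals, -0.032 with pan-endothelial scaling) and, with the type 2 or mural covariate, for Jam2 (0.25), Jam3 (0.17), Cdh5 (0.11, 0.055) and Pecam1 (0.12, 0.038).

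For the other junction genes, 29 higher became 1 with the type 2 and 5 with the mural covariate, and 13 lower became 8 without a filter, 7 on FPKM without a filter, 0 and 2 with the covariates and 8 with the replicate block. Same-numbered libraries showed no sign of pairing (correlations of 0.119, 0.0361, -0.125 and -0.14 between their deviations from the group means). Such correlations cannot exclude a shared litter or preparation. The replicate block left 1 of the 9 higher and 1 lower. Of the 26 named, 13 values turned: Ctnnb1 (-0.0043) with pan-endothelial scaling, Amotl1 (-0.083 to 0.0097) over the libraries left out, and with the type 2 covariate Cxadr (-0.48), Clmp (-0.023), Cldn15 (0.28), Cldn3 (-0.42), Cldn7 (-0.73), Amotl1 (0.19), Patj (-0.61) and Cgn (-1.27), and with the mural covariate Cldn15 (0.32) and Amotl1 (0.021). In 50 further cases a named gene kept its direction but lost its call: 33 with the marker covariates and 17 elsewhere, these in Jup, Ctnna1, Mcam, Cxadr, Cldn19 and Cldn7, of which the replicate block lost Jup (adjusted p 0.0642), Ctnna1 (0.0602) and Mcam (0.0558). The cause was not tested. Depth is lowest for Jam3, at 135 to 189 counts per library.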
